A study of Mus musculus with 20 samples.

Results

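The p53 target genes described here are 42 mouse genes, Trp53 itself and genes reported to be transcribed under its control, chosen by symbol without the BCL2 family. All 42 were matched to an Ensembl identifier in a table of 35226 genes counted in 20 LLC1 tumors, and 41 of them passed the filter on low counts. Perp, which encodes a membrane protein of cell junctions, did not pass. LLC1 is a Lewis lung carcinoma cell line of C57BL/6 origin, injected under the skin of the right flank of C57BL6/J mice in PBS and Matrigel, so each tumor is a graft of 1 cell line outside the lung together with the host cells that entered it. The study had 4 randomized arms, with treatment of established tumors, and 5 tumors per arm were sequenced. The vehicle arm received neither agent, the KW6002 arm received istradefylline, an antagonist of an adenosine receptor, the cisplatin arm received the platinum compound that crosslinks DNA, and the cotreatment arm received both agents. The doses and schedule for these tumors were not given in the sources used here. The titles number the tumors 1 to 5 within each arm and do not state that each came from a separate mouse, so the P values measure the spread between these samples. The comparisons ask what each agent did to the p53 targets and whether KW6002 changed what cisplatin did.

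p53 is a transcription factor that is kept at a low level by the ubiquitin ligase Mdm2 and its partner Mdm4. DNA damage, such as platinum crosslinks, leads kinases including Atm, Atr, Chek1 and Chek2 to release p53 from that control, mostly without more p53 mRNA. Stabilized p53 binds a pair of decamer half-sites near its target genes and raises transcripts for cell cycle arrest, repair, death receptors, the apoptosome and stress metabolism, and also for Mdm2, Ppm1d and Ccng1, which turn it off again.

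Reads counted per tumor numbered between 28.37 M and 40.97 M. Values are CPM, a gene's reads relative to the TMM-scaled total of its library in M. Adjusted P is the Benjamini-Hochberg value of edgeR's quasi-likelihood test over the 16665 genes tested, and a gene was called changed when adjusted P was under 0.05 and the log2 fold change was at least 0.32 in size. The code numbers in the column names fall into an earlier run of numbers with 8 tumors (1 vehicle, 2 KW6002, 2 cisplatin and 3 cotreated) and a later run with 12 (4, 3, 3 and 2), and what they stand for is not stated. Of the markers of lung epithelium, Sftpc, Scgb1a1 and Epcam averaged under 0.05 CPM in every arm. The sum of 5 red blood cell markers ran from 25.6 to 117 CPM in the 10 tumors without cisplatin and from 0 to 0.11 CPM in the 10 with it. Sums of endothelial markers ran from 109 to 182 CPM without cisplatin and from 59.3 to 94.8 CPM with it. Neutrophil markers ran from 44.7 to 147 CPM without cisplatin and from 13.6 to 67.3 CPM with it. In the other direction, the sum of 6 lung epithelium markers ran from 322 to 433 CPM without cisplatin and from 467 to 595 CPM with it, without overlap. Nearly all of that sum is Krt8 and Krt18. Of the 3 tested, Krt8 was called higher (log2 fold change 0.53 after cisplatin and 0.57 after cotreatment), and Krt18 (0.32 and 0.21) and Cdh1 (-0.03 and 0.18) were not called. The part of these shifts in the results below was not tested. In bulk tumors, fewer cells of a type and less RNA per cell cannot be told apart.

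Cisplatin raised most of the 41 tested members of this list, and no member was called changed after KW6002 alone. After cisplatin alone, 25 of the 41 tested members were called higher than vehicle and none lower, where 6.01% of all genes tested were called higher and 4.57% lower. After cotreatment, 29 members were called higher and none lower, against 13.1% and 10.4% of all genes. The median log2 fold change of the 41 members was 0.54 after cisplatin and 0.67 after cotreatment, while the medians over all genes were 0 and -0.016. The 5 values of the treated arm lay above all 5 vehicle values for 20 members after cisplatin and for 26 after cotreatment, where 5.23% and 12.2% of all genes did so. None lay below all 5, as 5.12% and 12.4% of all genes did. Both comparisons used the same vehicle tumors. The members were chosen with earlier results of these data known. Of 24 tested genes on a further list of reported p53 targets, 2 (8.33%) were called higher and 1 (4.17%) lower after cisplatin. After cotreatment 1 (4.17%) was higher and 3 (12.5%) were lower.

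Of the 41, 23 members were called higher in both cisplatin arms, 6 in the cotreated arm only (Mdm4, Polk, Zmat3, Apaf1, Sesn1 and Abhd4), 2 in the cisplatin arm only (Gdf15 and Rps27l) and 10 in neither (Trp53, Ddb2, Xpc, Rrm2b, Plk2, Dyrk3, Tnfrsf10b, Tigar, Pltp and Steap3). Of these 8 single-arm calls, only Sesn1 and Gdf15 were also called between the arms themselves. Of all genes, at most 6.01% were higher in both arms, the share called higher after cisplatin. At most 13.1% were higher after cotreatment only, the share called higher in that arm. As a mean over the members of log2 CPM minus the vehicle mean, the vehicle tumors ranged from -0.09 to 0.14 and the KW6002 tumors from -0.14 to 0.09. Cisplatin tumors ranged from 0.43 to 0.69 and cotreated tumors from 0.51 to 0.75, so that every tumor with cisplatin was above every tumor without it. Vehicle replicate 2 was the highest of its arm, with 34 of 41 members above the vehicle mean.

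**Figure D1:**
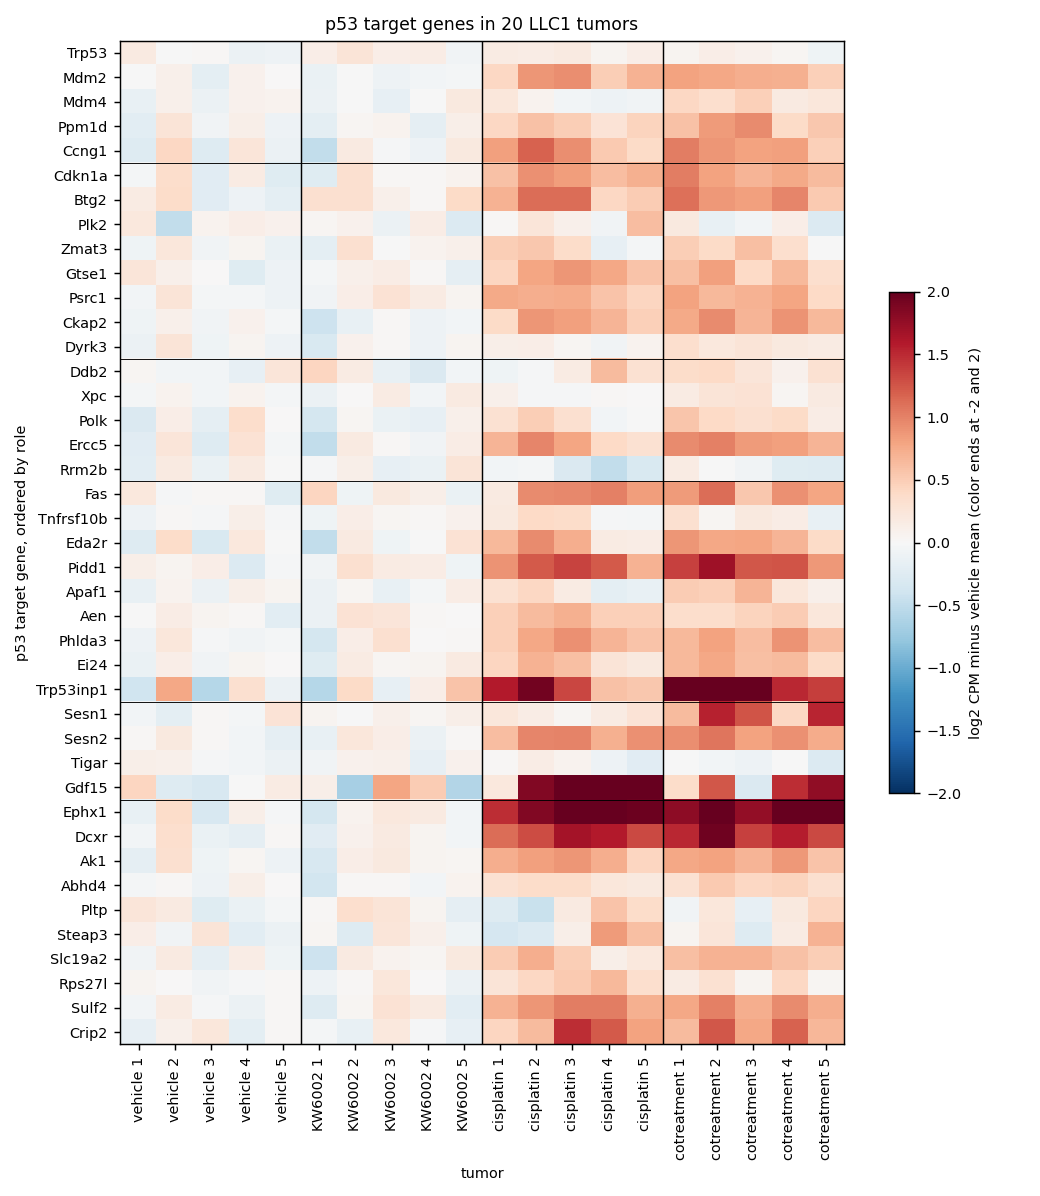
Each row is 1 of the 41 tested p53 target genes, ordered by role, and each column 1 tumor; color is log2 CPM minus the mean of the 5 vehicle tumors, with the scale ending at -2 and 2. The right-hand 10 columns, the tumors with cisplatin, are redder for most rows, and the rows for Trp53, Tigar and Xpc stay pale.

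The members' start sites were searched for the p53 consensus, since 23 members rose in both cisplatin arms. A RefSeq promoter table on build GRCm38.p6, with windows from 250 bases before to 50 after each listed start, held 53 windows for 35 of the 42 members, and Zmat3, Ddb2, Xpc, Rrm2b, Tnfrsf10b, Perp and Trp53inp1 were not in it. The motif was the p53 consensus element, 2 decamer half-sites with a spacer of up to 13 bases and at most 2 mismatches over 20 bases. It reads alike on both strands. It was found for 6 of the 35 members (17.1%), against 4.71% of all 27025 genes in the table. A perfect half-site was found for 13 of the 35 (37.1%), against 9.55% of all genes. Counted by window, the shares were 11.3% against 4.09% for the full motif and 26.4% against 8.36% for the half-site. Members were listed as reported p53 targets, so these shares describe the list and not the tumors. All full matches and the half-sites are descriptions of these letters, and binding was not measured. The 4 stretches below are shown because Cdkn1a, Ccng1 and Ckap2 rose in both arms and hold a full match, and because Mdm2, the main feedback inhibitor, holds a single perfect half-site. Each is the 250 bases before the start, 5′ to 3′ on the gene's strand, with matching half-sites in capitals.
Cdkn1a, chr17:29090729-29090978, plus strand: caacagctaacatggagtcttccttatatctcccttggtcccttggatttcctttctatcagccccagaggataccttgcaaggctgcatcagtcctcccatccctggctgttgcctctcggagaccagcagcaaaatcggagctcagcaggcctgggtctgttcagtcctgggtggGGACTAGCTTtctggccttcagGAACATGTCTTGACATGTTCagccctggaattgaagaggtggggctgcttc
Ccng1, chr11:40755287-40755536, minus strand: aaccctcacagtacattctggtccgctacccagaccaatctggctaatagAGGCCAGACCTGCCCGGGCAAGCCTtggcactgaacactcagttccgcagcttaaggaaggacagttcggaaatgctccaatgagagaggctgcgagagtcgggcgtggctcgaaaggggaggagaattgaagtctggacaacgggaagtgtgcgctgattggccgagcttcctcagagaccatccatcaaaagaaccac
Ckap2, chr8:22185820-22186069, minus strand: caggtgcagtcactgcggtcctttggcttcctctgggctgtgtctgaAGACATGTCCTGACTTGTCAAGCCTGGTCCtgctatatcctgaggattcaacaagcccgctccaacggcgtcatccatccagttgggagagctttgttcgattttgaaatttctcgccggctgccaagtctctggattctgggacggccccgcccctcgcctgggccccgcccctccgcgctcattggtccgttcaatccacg
Mdm2, chr10:117710759-117711008, minus strand: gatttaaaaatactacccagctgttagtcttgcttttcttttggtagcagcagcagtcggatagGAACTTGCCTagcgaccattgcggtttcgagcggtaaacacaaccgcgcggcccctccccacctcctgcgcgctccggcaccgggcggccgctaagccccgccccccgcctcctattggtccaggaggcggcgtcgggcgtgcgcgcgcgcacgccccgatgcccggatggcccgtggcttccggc

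The Cdkn1a match with no mismatch began 73 bases before the first listed start and had a spacer of 12 bases. A second match with 1 mismatch and no spacer began 51 bases before that start and shared a half-site with the first. That start lies at the upstream end of the gene as annotated, and distances from any other start are not given. In Ccng1 the closest match had 1 mismatch and began 195 bases before the start. In Ckap2 it had 2 mismatches and began 203 bases before the start. The other 3 members have their match at a second listed start, and the closest match of each is shown for comparison with the first 3.
Rps27l, chr9:66946296-66946315, plus strand: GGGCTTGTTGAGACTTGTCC
Gtse1, chr15:85859945-85859964, plus strand: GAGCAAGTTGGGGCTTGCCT
Sesn1, chr10:41887253-41887275, plus strand: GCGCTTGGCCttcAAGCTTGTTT
Of the 6 members with a full match, Cdkn1a, Ccng1, Ckap2 and Gtse1 were called higher in both arms, Rps27l after cisplatin only and Sesn1 after cotreatment only.

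Among p53 and its feedback inhibitors, Mdm2, Ppm1d and Ccng1 rose in both cisplatin arms, Mdm4 rose after cotreatment, and Trp53 was not called in either. Trp53 (ENSMUSG00000059552, chr11:69580359-69591873, GRCm38 as for all genes below) stood at 247, 218, 223, 202 and 204 CPM in vehicle tumors 1 to 5 and at 239.7, 263, 241, 241 and 207 CPM in KW6002 tumors. The cisplatin tumors held 244, 242, 248, 226 and 239 CPM and the cotreated tumors 228, 241, 232, 224 and 205 CPM. All 4 arms overlapped. The log2 fold change against vehicle was 0.13 ± 0.06 (SE) after cisplatin (adjusted P = 0.164) and 0.04 ± 0.06 after cotreatment (adjusted P = 0.625), so no change in p53 mRNA was called. The 95% intervals, -0.00 to 0.26 and -0.09 to 0.18, lie inside the fold limit.

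Mdm2 (ENSMUSG00000020184, chr10:117688875-117710758), the ligase that marks p53 for degradation, stood at 159, 173, 140.0, 170.0 and 162 CPM in vehicle and at 146, 159, 149, 154 and 156 CPM in KW6002 tumors. It stood at 213, 294, 306, 226 and 261 CPM after cisplatin and at 280.0, 273, 264, 262 and 224 CPM after cotreatment. The lowest tumor with cisplatin lay above the highest without it. Mdm2 rose 1.62-fold after cisplatin (log2 fold change 0.69 ± 0.09, adjusted P = 2.61e-05) and 1.62-fold after cotreatment (0.70 ± 0.09, adjusted P = 4.45e-06). The difference between the cisplatin arms was 0.00 ± 0.09, with a 95% interval of -0.17 to 0.18. Ppm1d, the phosphatase that reverses damage signaling, averaged 45.5 ± 6.11 CPM in vehicle, 61.7 ± 4.93 after cisplatin and 72.1 ± 11.8 after cotreatment (SD, n = 5 here and below), and was called higher in both arms (adjusted P = 0.00683 and 6.15e-05). Ccng1, a cyclin that feeds back on p53 through Mdm2, averaged 352 ± 76.7 CPM in vehicle, 600.1 ± 132 after cisplatin and 609 ± 80.2 after cotreatment and rose by a log2 fold change of 0.77 ± 0.17 and 0.79 ± 0.17 (adjusted P = 0.0039 and 0.00105). Per kb of exon, Ccng1 had the highest vehicle level of the members, 100.3 ± 21.8 CPM per kb, next to Rps27l at 95.3 ± 3.35 and Cdkn1a at 87.7 ± 16.1, whose spreads overlap. Mdm4, the Mdm2 partner that masks the activation domain of p53, averaged 259 ± 21.1 CPM in vehicle, 262 ± 26 after cisplatin and 325 ± 27.1 after cotreatment. It was called after cotreatment only (0.33 ± 0.08, adjusted P = 0.00266), and close to the fold limit of 0.32. Without vehicle replicate 1 or 3 or cotreatment replicate 1 or 3 its log2 fold change was 0.30 to 0.31, under that limit.

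Among 8 members that restrain the cell cycle or belong to it, 5 rose after cisplatin and 6 after cotreatment, where 6.01% and 13.1% of all genes were called higher. Cdkn1a (ENSMUSG00000023067, chr17:29090976-29100727), the p21 inhibitor of cyclin-dependent kinases, stood at 299, 393, 262, 344 and 259.8 CPM in vehicle and at 261, 386, 313, 313 and 324 CPM in KW6002 tumors. After cisplatin it stood at 461, 581, 550.0, 470.5 and 505 CPM and after cotreatment at 622, 537, 495, 518 and 478 CPM. No tumor with cisplatin overlapped a tumor without it. The fold change was 1.65 after cisplatin (log2 0.72 ± 0.11, adjusted P = 0.00026) and 1.7 after cotreatment (0.77 ± 0.11, adjusted P = 3.63e-05). Btg2, an antiproliferative cofactor of mRNA deadenylation, averaged 16.5 ± 3.07 CPM in vehicle, 28.4 ± 6.6 after cisplatin and 29.9 ± 4.32 after cotreatment and was called in both arms (adjusted P = 0.00118 and 0.000153). Zmat3, an RNA-binding zinc finger protein, averaged 237 ± 24.7 CPM in vehicle, 284 ± 60.2 after cisplatin and 306 ± 45.8 after cotreatment and was called after cotreatment only (adjusted P = 0.0348). That call was lost without vehicle replicate 1, 3, 4 or 5 or cotreatment replicate 1, 2 or 3, each left out alone (adjusted P from 0.0516 to 0.0806).

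Gtse1, Psrc1 and Ckap2, which are themselves expressed in dividing cells and act on microtubules and the spindle, rose in both cisplatin arms. Gtse1 averaged 66.3 ± 8.45 CPM in vehicle, 107 ± 13.2 after cisplatin and 97.9 ± 13.2 after cotreatment (adjusted P = 0.000128 and 0.000249). Psrc1 averaged 59.3 ± 6.32 CPM in vehicle, 93 ± 8.74 after cisplatin and 94.2 ± 10.2 after cotreatment (adjusted P = 4.82e-05 and 7.61e-06). Ckap2 averaged 96.9 ± 6.24 CPM in vehicle, 153 ± 22.2 after cisplatin and 168 ± 15.6 after cotreatment (adjusted P = 7.96e-05 and 2.21e-06). Of 6 proliferation markers, none was called after cisplatin, where 4.57% of all genes were called lower, and after cotreatment Mki67, Top2a, Pcna and Mcm2 were called lower, where 10.4% of all genes were, with Ccnb1 and Cdk1 not called. Their summed level was 1345 to 1594 CPM in vehicle, 1294 to 1486 CPM after cisplatin and 1052 to 1314 CPM after cotreatment. Plk2, a kinase of centriole duplication, and Dyrk3, a kinase that dissolves stress granules, were called in neither arm, with averages of 46 ± 7.91 CPM in vehicle, 52.2 ± 10.3 after cisplatin and 44.6 ± 6.07 after cotreatment for Plk2, and 48.7 ± 5.75 CPM in vehicle, 50.6 ± 2.94 after cisplatin and 57.1 ± 2.83 after cotreatment for Dyrk3.

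Of 5 members for DNA repair and nucleotide supply, 1 rose after cisplatin and 2 after cotreatment, where 6.01% and 13.1% of all genes were called higher. Ercc5, the XPG endonuclease that cuts beside a lesion in nucleotide excision repair, averaged 77.7 ± 13.9 CPM in vehicle, 120.3 ± 23 after cisplatin and 139.7 ± 11.9 after cotreatment and rose in both (log2 fold change 0.63 ± 0.14 and 0.85 ± 0.14, adjusted P = 0.00483 and 0.000137). Polk, a DNA polymerase for synthesis across lesions, averaged 76 ± 13.5 CPM in vehicle, 87.7 ± 14.3 after cisplatin and 96.8 ± 9.76 after cotreatment and was called after cotreatment only (adjusted P = 0.0306), which was lost without vehicle replicate 1 or 3 or cotreatment replicate 1 (adjusted P from 0.0624 to 0.0802). Ddb2 and Xpc, which recognize lesions for excision repair, were not called. Ddb2 averaged 5.86 ± 0.655 CPM in vehicle, 6.81 ± 1.44 after cisplatin and 7.12 ± 0.599 after cotreatment, and Xpc 36.1 ± 1.66 CPM in vehicle, 36.6 ± 1.33 after cisplatin and 41 ± 2.71 after cotreatment. Ddb2 overlaps the exons of Acp2 on the opposite strand by 652 bases, and whether counting used the strand is not stated, so its level is uncertain. Rrm2b, the p53-inducible subunit of ribonucleotide reductase, was not called either, with 22.4 ± 2.76 CPM in vehicle, 19 ± 2.46 after cisplatin and 21.1 ± 2.6 after cotreatment, and its log2 fold change after cisplatin was -0.24 ± 0.11 (adjusted P = 0.143).

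Of the 9 tested members for cell death and survival signaling, 7 rose after cisplatin and 8 after cotreatment, where 6.01% and 13.1% of all genes were called higher. Pidd1 (ENSMUSG00000025507, chr7:141438113-141444025), the scaffold of the PIDDosome that activates a caspase, stood at 18.5, 17.8, 18.7, 14.2 and 16.9 CPM in vehicle and at 16.4, 21.3, 19.3, 19 and 16.1 CPM in KW6002 tumors. It stood at 31.9, 40.2, 43.8, 40.3 and 27.7 CPM after cisplatin and at 44.2, 55.8, 40.8, 41 and 31.3 CPM after cotreatment. The arms with and without cisplatin did not overlap. Pidd1 rose 2.14-fold (log2 1.10 ± 0.14, adjusted P = 3.3e-05) and 2.47-fold (log2 1.31 ± 0.14, adjusted P = 1.05e-06).

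Trp53inp1 (ENSMUSG00000028211, chr4:11156431-11174379), a nuclear protein that promotes p53 phosphorylation and autophagy, stood at 48.1, 109, 42.7, 79.6 and 58.4 CPM in vehicle and at 43.1, 83, 56.9, 70 and 95 CPM in KW6002 tumors. After cisplatin it stood at 192, 242, 161, 96 and 92.9 CPM and after cotreatment at 297, 285, 264, 180.4 and 166 CPM. Cisplatin replicates 4 and 5 lay below the highest vehicle tumor, and all cotreated tumors were above it. The rise was 2.32-fold after cisplatin (log2 1.21 ± 0.32, adjusted P = 0.0152) and 3.53-fold after cotreatment (log2 1.82 ± 0.32, adjusted P = 0.00035). The call after cisplatin was lost with only the cisplatin and vehicle arms in the fit (adjusted P = 0.0577) and without the 5 tumors whose skeletal muscle markers summed to over 100 CPM, which leaves 2 cisplatin tumors (adjusted P = 0.0662). Between the cisplatin arms the difference was 0.61 ± 0.31 and was not called (adjusted P = 0.254).

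Fas, the death receptor for Fas ligand, was low in these tumors and averaged 3.01 ± 0.348 CPM in vehicle, 5.31 ± 1.09 after cisplatin and 5.44 ± 0.782 after cotreatment, with cisplatin replicate 1 at 3.42 CPM inside the vehicle range and the other 4 between 5.4 and 6.07 CPM (adjusted P = 0.0011 and 0.000219). The call of Fas after cisplatin was lost with separate run terms (0.57, adjusted P = 0.125). Eda2r, a receptor for ectodysplasin of the same superfamily, averaged 57.6 ± 11.8 CPM in vehicle, 83.5 ± 20.1 after cisplatin and 92.9 ± 11.9 after cotreatment (adjusted P = 0.0401 and 0.00436). Its call after cisplatin was lost without vehicle replicate 1, 3, 4 or 5 or cisplatin replicate 1, 2 or 3, each left out alone (adjusted P from 0.0502 to 0.1). Tnfrsf10b, the mouse TRAIL receptor, averaged 38.4 ± 2.2 CPM in vehicle, 43.8 ± 6.29 after cisplatin and 41.7 ± 4.84 after cotreatment and was not called. Aen, a nuclease of apoptosis, Phlda3, an inhibitor of Akt, and Ei24, an endoplasmic reticulum protein of autophagy, were called in both arms. Their log2 fold changes after cisplatin were 0.55 ± 0.08, 0.69 ± 0.10 and 0.45 ± 0.10, and after cotreatment 0.37 ± 0.08, 0.72 ± 0.10 and 0.61 ± 0.10. Apaf1, the core of the apoptosome, averaged 118 ± 9.91 CPM in vehicle, 129 ± 23.7 after cisplatin and 157 ± 24.6 after cotreatment and was called after cotreatment only (adjusted P = 0.00877). Its log2 fold change of 0.41 ± 0.11 was 0.32 with the code run as a term (adjusted P = 0.0294), just under the fold limit, and 0.15 in the later codes alone (adjusted P = 0.382), and neither was called. With separate run terms Apaf1 was called after cisplatin as well. Perp held between 0 and 0.358 CPM over the 20 tumors, 0 to 13 reads, and was not tested.

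The stress metabolism members went separate ways. Sesn2 (ENSMUSG00000028893, chr4:132492032-132510501), a sestrin that restrains the growth kinase mTOR, stood at 36.9, 41.7, 36.9, 35.1 and 32.2 CPM in vehicle and at 32.7, 42.7, 39.8, 33.5 and 37 CPM in KW6002 tumors. It stood at 55.6, 71.9, 72.5, 59.7 and 68.7 CPM after cisplatin and at 69.6, 76.9, 63.5, 68.8 and 60.7 CPM after cotreatment. No tumor with cisplatin overlapped one without it, and Sesn2 rose 1.8-fold (log2 0.85 ± 0.09, adjusted P = 5.31e-06) and 1.86-fold (log2 0.89 ± 0.09, adjusted P = 5.26e-07). Its relative Sesn1 (ENSMUSG00000038332, chr10:41809935-41908424) stood at 44.6, 40.2, 46.7, 44.8 and 55.6 CPM in vehicle and at 47.8, 45.9, 49.6, 47.2 and 50.2 CPM in KW6002 tumors. After cisplatin it stood at 54.2, 51.3, 47.6, 51.6 and 56 CPM, and after cotreatment at 71.6, 134, 111, 61.7 and 133 CPM. The cotreated tumors lay above all others, with replicates 2, 3 and 5 well above replicates 1 and 4. Against vehicle the log2 fold change was 0.17 ± 0.16 after cisplatin (adjusted P = 0.511) and 1.14 ± 0.16 after cotreatment (adjusted P = 3.61e-05).

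Gdf15 (ENSMUSG00000038508, chr8:70629393-70632456), a secreted stress hormone of the TGF-beta superfamily, was close to the limit of counting without cisplatin. It stood at 0.207, 0.105, 0.0979, 0.138 and 0.163 CPM in vehicle, 3 to 6 reads per tumor, and at 0.155, 0.0645, 0.285, 0.224 and 0.0723 CPM in KW6002 tumors. After cisplatin it stood at 0.169, 0.66, 1.42, 3.13 and 2.58 CPM, 5 to 102 reads per tumor, and after cotreatment at 0.196, 0.413, 0.102, 0.495 and 0.624 CPM, 3 to 20 reads per tumor. Cisplatin replicate 1 lay inside the vehicle range, replicates 2 to 5 lay above it, and the cotreated tumors overlapped both arms. The log2 fold change against vehicle was 3.45 ± 0.62 after cisplatin (adjusted P = 0.000915) and 1.34 ± 0.68 after cotreatment (adjusted P = 0.129). The call after cisplatin was lost with separate run terms (2.11, adjusted P = 0.0822), and in the fit of the cisplatin and vehicle arms alone Gdf15 did not pass the filter on low counts. Tigar, a phosphatase that lowers glycolytic flux, averaged 21 ± 1.45 CPM in vehicle, 20.8 ± 2.08 after cisplatin and 19.8 ± 1.46 after cotreatment and was not called.

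The remaining 10 members are enzymes, transporters and other proteins, and 7 rose in each cisplatin arm, where 6.01% and 13.1% of all genes were called higher. Ephx1 (ENSMUSG00000038776, chr1:180976210-181020904), the microsomal epoxide hydrolase, stood at 18.9, 26.8, 16.7, 22.7 and 20.5 CPM in vehicle and at 16.4, 21.9, 24.2, 23.6 and 20.1 CPM in KW6002 tumors. It stood at 58.4, 75.5, 88.2, 89.6 and 81.1 CPM after cisplatin and at 71.9, 83.7, 70.7, 87.7 and 84.6 CPM after cotreatment. The lowest tumor with cisplatin lay above the highest without it. Ephx1 rose 3.72-fold (log2 1.89 ± 0.13, adjusted P = 4.17e-08) and 3.77-fold (log2 1.92 ± 0.13, adjusted P = 1.33e-08). Dcxr (ENSMUSG00000039450, chr11:120725399-120727281), a reductase of sugars and dicarbonyls, stood at 9.64, 12.6, 9.11, 8.81 and 10.2 CPM in vehicle and at 8.52, 10.6, 11.3, 10.4 and 9.58 CPM in KW6002 tumors. It stood at 21.7, 24.8, 31.9, 30.1 and 25.2 CPM after cisplatin and at 28.6, 38.7, 25.9, 29.7 and 25 CPM after cotreatment. The arms with and without cisplatin did not overlap, with rises of 2.66-fold (adjusted P = 9.07e-07) and 2.94-fold (adjusted P = 7.77e-08).

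Sulf2 (ENSMUSG00000006800, chr2:166073089-166155663), an extracellular sulfatase of heparan sulfate, stood at 61.1, 70.6, 62.4, 58 and 64.1 CPM in vehicle and at 53, 65.1, 77.2, 71.6 and 54.3 CPM in KW6002 tumors. It stood at 102, 117, 128, 128 and 103 CPM after cisplatin and at 108, 127, 105, 121 and 104 CPM after cotreatment. Every tumor with cisplatin was above every tumor without it, by a log2 fold change of 0.87 ± 0.10 (adjusted P = 1.01e-05) and 0.84 ± 0.10 (adjusted P = 2.27e-06) against vehicle. Crip2 (ENSMUSG00000006356, chr12:113140236-113145506), a LIM domain protein, stood at 9.05, 10.9, 11.9, 8.86 and 10.3 CPM in vehicle and at 9.89, 9.12, 11.7, 10 and 9.08 CPM in KW6002 tumors. It stood at 13.7, 15.8, 28.3, 23.9 and 17.7 CPM after cisplatin and at 15.8, 24.1, 17.4, 23 and 16 CPM after cotreatment. These did not overlap either, though the cisplatin arm was wide, and the log2 fold changes were 0.96 ± 0.17 (adjusted P = 0.000749) and 0.92 ± 0.17 (adjusted P = 0.000314). Sulf2 shares 154 exon bases with Ncoa3 on the opposite strand.

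Ak1, an adenylate kinase, averaged 119 ± 17.3 CPM in vehicle, 196 ± 22.7 after cisplatin and 198 ± 15.8 after cotreatment (adjusted P = 0.000101 and 1.77e-05), and Slc19a2, a thiamine transporter, 131 ± 14.5 CPM in vehicle, 176 ± 29.5 after cisplatin and 200.1 ± 11.6 after cotreatment (adjusted P = 0.0134 and 0.000284). Both rose in both arms. Abhd4, a lipase of phospholipid metabolism, averaged 108 ± 6.05 CPM in vehicle, 133 ± 7.11 after cisplatin and 143 ± 9.25 after cotreatment. Its call after cotreatment (log2 fold change 0.40 ± 0.07) and lack of a call after cisplatin (0.29 ± 0.07, adjusted P = 0.00676) fall on either side of the fold limit. Abhd4 was called after cisplatin with separate run terms, and without vehicle replicate 4 or cisplatin replicate 4 or 5, each left out alone. Rps27l, a ribosomal protein homolog, averaged 77.8 ± 2.73 CPM in vehicle, 106 ± 11.4 after cisplatin and 89.3 ± 10.3 after cotreatment and was called after cisplatin only (adjusted P = 0.000949 and 0.059). Pltp, a phospholipid transfer protein, averaged 65.5 ± 9.24 CPM in vehicle, 71.2 ± 20.2 after cisplatin and 71.5 ± 11.9 after cotreatment, and Steap3, a ferrireductase, 31.4 ± 4.34 CPM in vehicle, 37.6 ± 13.8 after cisplatin and 36.2 ± 8.93 after cotreatment. Neither was called, and both were highest in cisplatin replicates 4 and 5 among the cisplatin tumors. Pltp shares 495 exon bases with Ctsa on the opposite strand, so its reads may be mixed where strand was not used.

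**Figure D2:**
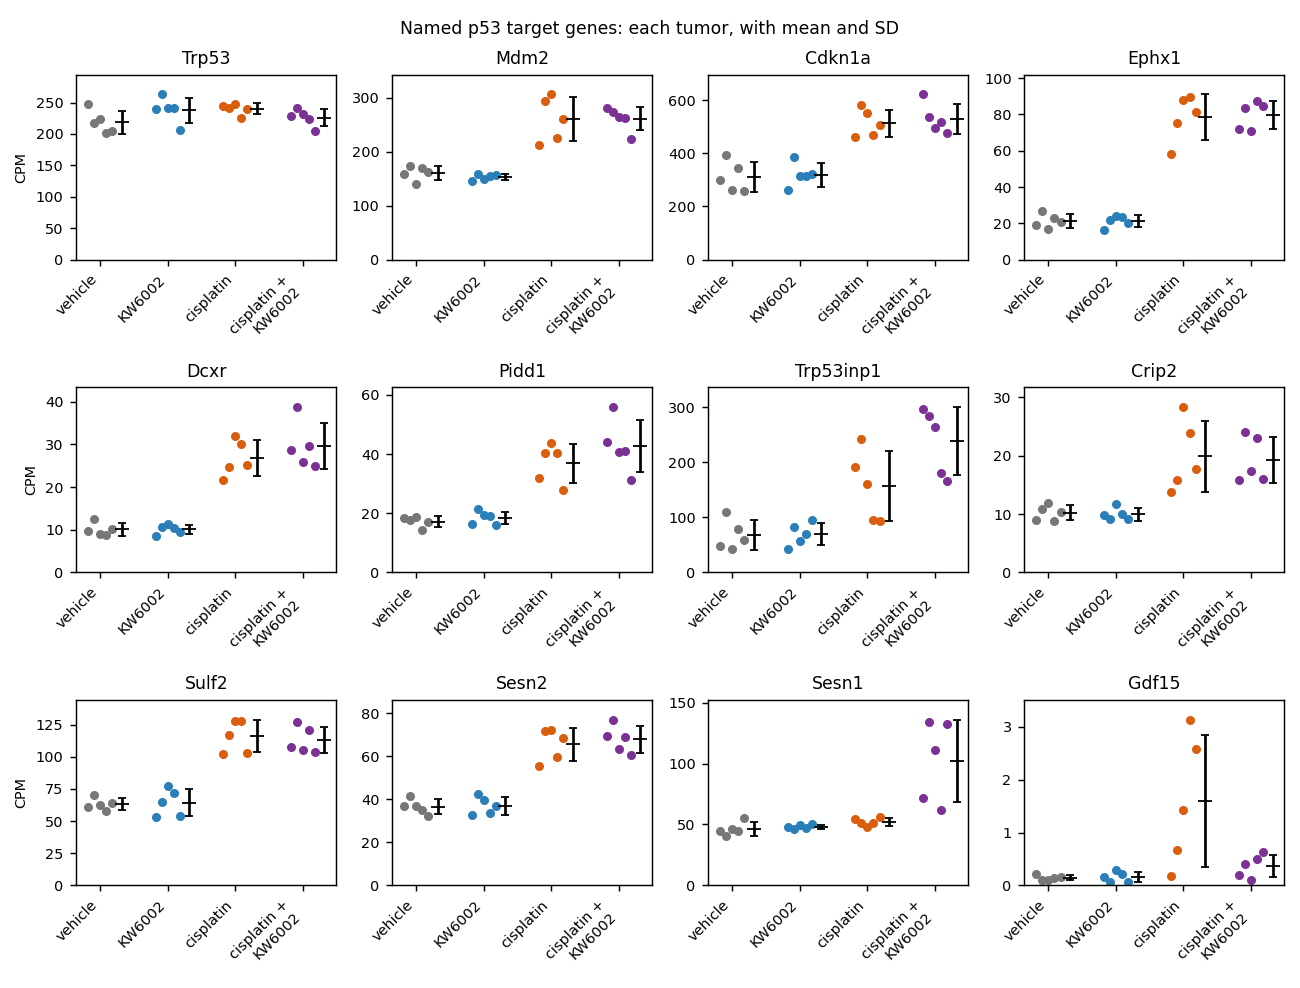
CPM of 12 named p53 target genes in each tumor (points, replicates 1 to 5 from left to right within an arm), with the mean and SD of the 5 tumors as black bars; every axis starts at 0. Trp53 lies level across arms, Sesn1 is high in the cotreated arm alone, and Gdf15 reaches 3.13 CPM in the cisplatin arm.

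**Figure D3:**
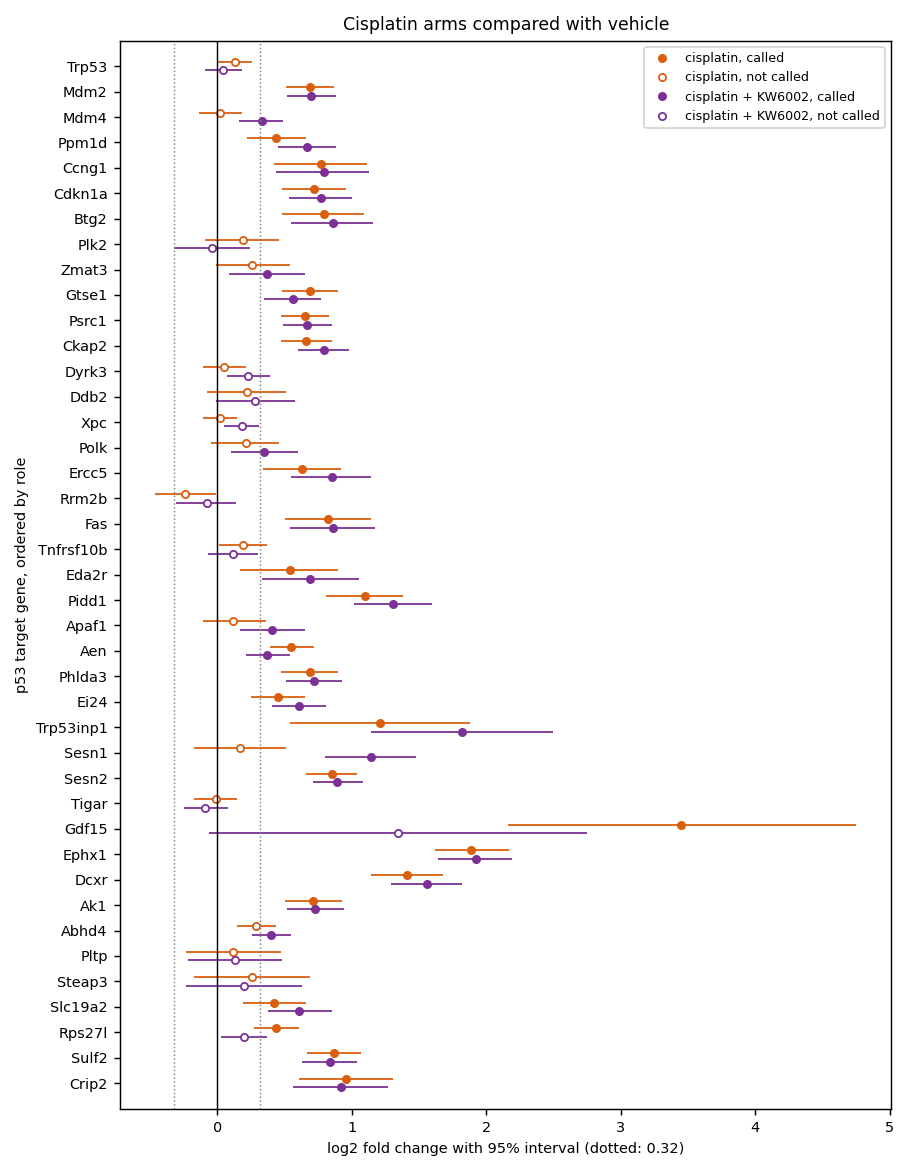
Log2 fold change against vehicle (x axis) with 95% intervals for 41 p53 target genes after cisplatin (orange) and after cotreatment (purple); filled points passed both thresholds and dotted lines mark a log2 fold change of 0.32. Filled points number 25 for cisplatin and 29 for cotreatment, all to the right of 0.

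After KW6002 alone no member was called changed. Of 41, none passed the thresholds against vehicle and none had an unadjusted P under 0.05 in edgeR, where 0 of 16665 genes (0%) were called and 339 had such a P. Nor did any member separate the arms, as 0.210% of all genes did upward and 0.132% downward. DESeq2 called no member either. The log2 fold changes ran from -0.14 (Ckap2) to 0.22 (Btg2), with a median of 0.01. The 95% interval of the difference was -0.25 to 0.11 for Mdm2, -0.20 to 0.27 for Cdkn1a and -0.27 to 0.28 for Ephx1, each inside the fold limit, but -1.40 to 1.77 for Gdf15. Against KW6002 tumors, cotreatment raised 27 members and lowered none, where 12.6% and 10.7% of all genes were called, with a median log2 fold change of 0.59. Within the later codes alone 20 remained, where 5.23% of all genes were called higher, and Apaf1, Btg2, Ccng1, Eda2r, Mdm4, Polk and Trp53inp1 were lost. Within the earlier codes alone (2 KW6002 and 3 cotreated tumors) 27 were called, 26 of them shared with the fit of all tumors. There 10.7% of all genes were called higher and 10.1% lower, and Fas was lost and Dyrk3 gained. Over all tumors, the KW6002 and cotreated values did not overlap for 26 members, where 12.2% of all genes were higher and 12.7% lower without overlap.

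Between the cisplatin arms, 2 members were called. The share of all genes called was 2.29% higher and 1.71% lower after cotreatment, and the median over members was 0.05. Sesn1 rose 1.96-fold when KW6002 was added (log2 0.97 ± 0.16, adjusted P = 0.00275), with all 5 cotreated tumors above all 5 cisplatin tumors. Dyrk3 was the other member whose arms did not overlap, where 2.33% of all genes were higher and 2.50% lower without overlap, and its difference of 0.18 ± 0.08 was not called (adjusted P = 0.172). Gdf15 fell by 2.11 on the log2 scale (SE 0.54, adjusted P = 0.0249), with the arms overlapping. That call was lost without cisplatin replicate 4 (-1.72, adjusted P = 0.0726) or 5 (-1.86, adjusted P = 0.0672), and without cotreatment replicate 1, 2 or 3 (adjusted P from 0.0657 to 0.078). Mdm4 was higher by 0.31 ± 0.08 with adjusted P = 0.0229, just under the fold limit. It was called without cisplatin replicate 1 or 2, without cotreatment replicate 4 or 5, and with no filter on low counts. Fitting only the 10 tumors of these arms, neither Sesn1 (adjusted P = 0.0518) nor Gdf15 (adjusted P = 0.132) was called. The adjusted P of Sesn1 over all alternatives ran from 1.05e-06 to 0.25.

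Whether KW6002 acted differently with and without cisplatin was tested as an interaction, the difference between its effects. No member was called in edgeR, where 0.0360% of all genes were called higher and 0.0300% lower (0.0660% in all), and 7 of 41 had an unadjusted P under 0.05, as did 12.2% of all genes. The 2 largest in size were Gdf15 at -2.29 ± 0.94 (adjusted P = 0.325) and Sesn1 at 0.92 ± 0.23 (adjusted P = 0.119). DESeq2 called Sesn1. For Mdm2 the interaction was 0.08 ± 0.12 with a 95% interval of -0.18 to 0.33, and for Cdkn1a 0.01 ± 0.16 with -0.32 to 0.34.

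**Figure D4:**
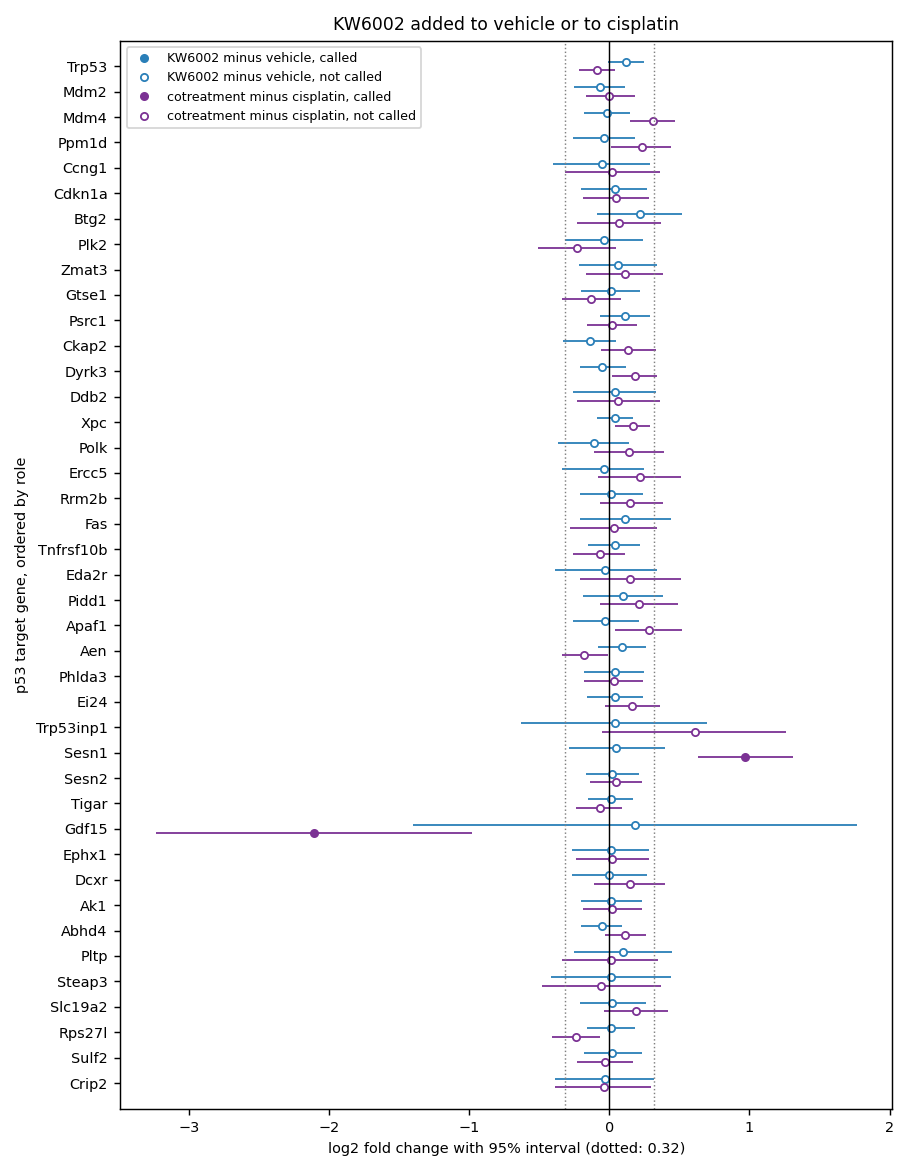
Log2 fold change (x axis) with 95% intervals of 41 p53 target genes for KW6002 minus vehicle (blue) and for cotreatment minus cisplatin (purple); filled points passed both thresholds and dotted lines mark a log2 fold change of 0.32. The 2 filled points are Sesn1 at 0.97 and Gdf15 at -2.11, both between the cisplatin arms.

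Within the later codes alone (4 vehicle, 3 cisplatin and 2 cotreated tumors), 25 members were called after cisplatin, 24 higher and 1 lower, the lower one being Rrm2b, and 22 of them were calls over all tumors. In that fit 1550 of all 17222 genes tested were called higher and 1193 lower. Eda2r, Slc19a2 and Trp53inp1 were lost there, and Pltp, Rrm2b and Steap3 gained. After cotreatment, 24 were called within the later codes, 23 of them shared with the fit of all tumors, while 7.48% of all genes were called higher and 5.34% lower within the later codes, and Apaf1, Ccng1, Eda2r, Mdm4, Polk and Zmat3 were lost. Between the cisplatin arms no member was called within either run, where the later codes gave 0 genes called higher and 1 lower of 17222 and the earlier codes 178 and 144 of 16709, with Sesn1 at 0.92 in the later (adjusted P = 0.25) and 0.99 in the earlier (adjusted P = 0.159), and Gdf15 at -2.08 (adjusted P = 0.14) and -0.83 (adjusted P = 0.552). The earlier run held 1 vehicle tumor, and comparisons with vehicle were not made within it. With the code run as a term over all tumors, Eda2r was lost after cisplatin (adjusted P = 0.0592), and Apaf1, Mdm4, Polk and Zmat3 were lost after cotreatment, 4 of the 6 members called in that arm only.

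Cisplatin replicates 4 and 5 stood apart among the cisplatin tumors. Of the 41 members, 17 (41.5%) were lower in both than in any of replicates 1 to 3, as were 23.9% of all genes, among them Trp53inp1, Zmat3, Eda2r, Ercc5 and Ccng1, and 4 (9.76%) were higher in both (Gdf15, Ddb2, Pltp and Steap3), as were 24.0% of all genes. The sum of 5 fibroblast markers was 3860 and 3390 CPM in them and between 2144 and 2424 CPM in the other 3. The sum of 6 T and NK cell markers was 7.82 and 5.17 CPM against 1.39 to 2.21 CPM, and that of 5 neutrophil markers 38.6 and 67.3 CPM against 13.6 to 24 CPM, while the 6 macrophage markers overlapped. The sum of 6 lung epithelium markers, nearly all Krt8 and Krt18, was 595 and 543 CPM against 479 to 520.2 CPM. The part of these shifts in the values of the 2 tumors was not tested. Without both tumors, an alternative chosen after seeing the data, all 25 calls after cisplatin remained and Abhd4, Polk, Tnfrsf10b and Zmat3 were added, where 4.91% of all genes were called higher and 4.43% lower, and Gdf15 was no longer called between the cisplatin arms (-1.04, adjusted P = 0.28). The 5 tumors whose skeletal muscle markers summed to over 100 CPM were cisplatin replicates 1, 3 and 5, KW6002 replicate 5 and cotreatment replicate 4. Without them, also chosen after seeing the data and leaving 2 cisplatin tumors, 21 members were called after cisplatin, where 4.19% of all genes were called higher and 2.68% lower, and Eda2r, Ppm1d (0.44, adjusted P = 0.054), Slc19a2 and Trp53inp1 were lost. After cotreatment 27 were called, where 13.4% of all genes were called higher and 10.4% lower, and Polk and Zmat3 were lost.

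The regulators of p53 are kinases, ligases and cofactors that act on the protein. Of 20 listed regulators, 17 were tested. After cisplatin 2 were called lower (11.8%) and none higher, where 4.57% and 6.01% of all genes were. After cotreatment 2 were called higher (11.8%) and 3 lower (17.6%), where 13.1% and 10.4% of all genes were. Atm, the kinase that answers double-strand breaks, averaged 61.5 ± 6.06 CPM in vehicle, 46.1 ± 5.41 after cisplatin and 43.2 ± 4.08 after cotreatment and fell in both (log2 fold change -0.42 ± 0.09 and -0.51 ± 0.09, adjusted P = 0.00274 and 0.000137). Chek1, the checkpoint kinase downstream of Atr, averaged 36.1 ± 3.17 CPM in vehicle, 29.8 ± 2.92 after cisplatin and 24.8 ± 1.67 after cotreatment and was called lower after cotreatment only (adjusted P = 9.99e-06). Rchy1, a ubiquitin ligase of p53, averaged 52.8 ± 2.8 CPM in vehicle, 63.4 ± 1.34 after cisplatin and 68.7 ± 3.84 after cotreatment and was called higher after cotreatment only (adjusted P = 1.21e-05). After cisplatin, Chek1 and Rchy1 moved the same way with adjusted P under 0.05, but their log2 fold changes were under the fold limit. The other calls were Ppp1r13b, lower after cisplatin, and Hipk2, higher, and Ppp1r13l, lower, after cotreatment. Between the cisplatin arms none was called, with 9 of 17 at an unadjusted P under 0.05 in edgeR, as were 23.3% of all genes. Cdkn2a, Trp63 and Trp73 did not pass the filter on low counts.

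A further 25 genes reported as p53 targets, not among the 42, were tested in the same fit. Of 24 that passed the filter, 2 were called higher (8.33%) and 1 lower (4.17%) after cisplatin, where 6.01% and 4.57% of all genes were. After cotreatment 1 was higher (4.17%) and 3 lower (12.5%), where 13.1% and 10.4% of all genes were. The medians were 0.11 and 0.02. Epha2, an ephrin receptor, averaged 124 ± 8.08 CPM in vehicle, 161 ± 17.9 after cisplatin and 139 ± 11.8 after cotreatment and was called higher after cisplatin (adjusted P = 0.00226), as was Zfp365, a zinc finger protein of genome stability, with 16.5 ± 2.21 CPM in vehicle, 22.5 ± 3.04 after cisplatin and 20.2 ± 2.25 after cotreatment (adjusted P = 0.00551). Pml, the scaffold of PML nuclear bodies, averaged 85.5 ± 3.19 CPM in vehicle, 106 ± 8.82 after cisplatin and 91.1 ± 8.06 after cotreatment, and its log2 fold change of 0.31 ± 0.06 after cisplatin was under the fold limit (adjusted P = 0.00291). Called lower were Trp53i11 after cisplatin, and Trp53i11, Trp53i13 and Hic1 after cotreatment. Ddit4, an inhibitor of mTOR signaling, was called higher after cotreatment, against vehicle (log2 fold change 0.77 ± 0.12, adjusted P = 0.0001) and against cisplatin (0.48 ± 0.12, adjusted P = 0.0246), the 1 call of this list between those arms. Spata18 did not pass the filter.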

How the data were processed

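Poly(A) mRNA of 20 LLC1 tumors, 5 per arm, was sequenced from stranded libraries, 1 per tumor. Per the labels and the study's methods, the authors demultiplexed with bcl2fastq 2.17.1.14, aligned to mm10 with STAR and made the deposited raw counts per Ensembl gene with HTSeq 0.6.1p1, without normalization. The strand option was not given in the sources used here. Molecular identifiers are not mentioned. In the fit of all tumors, the SEs, intervals and P values come from the spread between tumors within arms, pooled over all 20 tumors. These errors are therefore not those of the compared arms alone.

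Groups came from the titles. Symbols and positions came from GENCODE annotation of GRCm38, and 35142 of 35226 identifiers had a symbol. No count column was unused. Counts were filtered with filterByExpr (16665 genes, 99.9% of counts), scaled by TMM and tested, two-sided, with edgeR 4.0.16 in R 4.3.3 (quasi-likelihood, 4 arm means, robust). Thresholds were the study's. Alternatives included DESeq2 1.42.0, other scalings, filters, terms and samples, and the code was tested on simulated data.

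The members and other gene lists were chosen with earlier results of these data known. Values in every tumor are given for Trp53, Mdm2 and Cdkn1a, for the 8 members with the largest called change after cisplatin, and for members called between the cisplatin arms, and means for the other members and, of the other lists, the 3 genes with the smallest adjusted P after cisplatin. Other genes called on those lists are named because they were 5 or fewer, after their values were seen, and promoter stretches were printed, also after the matches were seen, where the match lay at the first or only listed start (Cdkn1a, Ccng1 and Ckap2) and for Mdm2, and sites alone where it lay at a second start (Gtse1, Rps27l and Sesn1). Rank correlation between tumors of an arm was at least 0.979, and no tumors were identical. Of each member's 50-base words, at most 17.8% (Ddb2) occurred in another gene's transcripts.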

Additional observations from a re-analysis of the deposited data

Results flagged for a closer look

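In 168 groups of 5 tumors, 7 values stood apart from the other 4 by more than the usual limit for a single outlier, and chance alone gives about 1 in 20 groups. Vehicle replicate 2 had 3 of them. Its Plk2 was 32.2 CPM where the other vehicle tumors lay between 47.4 and 52.3, its Psrc1 was 70.5 CPM where the others lay between 54.8 and 57.4, and its Phlda3 was 83.1 CPM where the others lay between 66.4 and 70.2. Psrc1 and Phlda3 in this tumor remained below every tumor with cisplatin. Fas in cisplatin replicate 1 was 3.42 CPM where the others lay between 5.4 and 6.07. Perp was highest in vehicle replicate 1 at 0.138 CPM, in KW6002 replicate 4 at 0.128 CPM and in cotreatment replicate 2 at 0.358 CPM, which are 4, 4 and 13 reads.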

How the results depend on the processing

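Across 60 gene results and 1977 alternative values, 1896 kept direction and side of the threshold, 77 lost the call, 2 gained one (Gdf15 after cotreatment, with the later codes alone and with the code run as a term) and 2 reversed. Both reversals are uncalled values of Trp53, cotreatment versus vehicle, -0.0022 with the code run as a term and -0.06 with separate run terms. The 60 results are mostly calls, which could not gain one, so most gains lie outside that tally. With separate run terms Abhd4 and Apaf1 gained a call after cisplatin, and Fas and Gdf15 lost theirs. Dyrk3 gained one after cotreatment, and Dyrk3 and Zmat3 in cotreatment against KW6002, with none lost there. With the replicate block, members called against vehicle numbered 0 for KW6002, 25 for cisplatin and 29 for cotreatment, 2 between the cisplatin arms, 27 against KW6002 and 0 in the interaction, where 0, 9.66%, 22.6%, 3.50%, 22.6% and 0 of all genes were called. Of 20 tumors, 3 correlated best with a tumor of their own number. That count cannot decide whether the numbers pair the tumors, since replicates numbered 1 were all in the earlier run and those numbered 4 and 5 all in the later. Members called between the cisplatin arms numbered 1 with at least 10 counts in every tumor, 1 tested against the fold limit, 0 in the later codes alone, 0 in the earlier alone, 0 with only the groups compared, 1 without cisplatin 4 and 5, 3 without the muscle tumors (Rps27l gained), and 1 to 3 without single tumors. With no filter on low counts they numbered 2, with Gdf15 lost and Mdm4 gained. In the interaction DESeq2 called 1 (0.298% of all genes), and leaving out single tumors gave 0 to 1 (0 to 1.36% of all genes), the 1 being Sesn1 without cotreatment replicate 4. With only the groups compared, 22 members were called after cisplatin, without Eda2r, Gdf15 and Trp53inp1, where 4.48% of all genes were called higher and 3.55% lower. Tested against the fold limit, 17 members were called after cisplatin and 22 after cotreatment, where 1.56% and 5.99% of all genes were called higher.

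Regulators called after cisplatin (2) numbered 0 against the fold limit, 1 with separate run terms, 1 with only the groups compared, 1 without cisplatin 4 and 5, 1 without the muscle tumors, 4 with no fold limit, and 1 to 3 without single tumors. After cotreatment (5) they numbered 2 against the fold limit, 3 in the later codes and 9 with no fold limit. Between the cisplatin arms (0) they numbered 1 in the earlier codes, 1 without cisplatin 4 and 5, 2 with no fold limit, and 0 to 1 without single tumors. Further targets called after cisplatin (3) numbered 0 against the fold limit, 7 in the later codes, 5 without cisplatin 4 and 5, 5 with no fold limit, and 3 to 5 without single tumors. After cotreatment (4) they numbered 2 against the fold limit, 8 with separate run terms, 1 in the later codes, 8 with no fold limit, and 2 to 6 without single tumors. Between the cisplatin arms (1) they numbered 0 with no filter on low counts, 0 against the fold limit, 0 with separate run terms, 0 in the later codes, 0 with only the groups compared, 2 without cisplatin 4 and 5, 2 with no fold limit, and 0 to 2 without single tumors. Of all genes, in either direction, 10.6% were called after cisplatin over all tumors, 2.68% against the fold limit, 6.62% with separate run terms, 15.9% in the later codes, 8.04% with only the groups compared, 9.35% without cisplatin 4 and 5, 6.87% without the muscle tumors, 16.5% with no fold limit, and 8.20% to 12.2% without single tumors. After cotreatment the shares were 23.5% over all tumors, 9.95% against the fold limit, 22.8% with separate run terms, 12.8% in the later codes, 35.4% with no fold limit, and 19.8% to 24.2% without single tumors. For cotreatment against cisplatin they were 4.76% with at least 10 counts in every tumor, 1.38% with no filter, 0.168% against the fold limit, 3.28% with separate run terms, 0.00581% in the later codes, 1.93% in the earlier, 1.35% with only the groups compared, 3.42% without cisplatin 4 and 5, 1.28% without the muscle tumors, 6.52% with no fold limit, and 1.72% to 6.03% without single tumors. The causes were not tested. Leaving out cisplatin 4 and 5 or the muscle tumors was chosen after seeing the data. Depth limits Gdf15 and Perp.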
